A study of Mus musculus with 7 samples.

Results

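The genes described here encode the proteins that hold the MLL histone methyltransferase on chromatin, that form its core, that leukemic MLL fusions join or recruit, and the demethylase LSD1, on which such leukemias depend. They are Men1, Psip1, Wdr5, Rbbp5, Ash2l, Dpy30, Dot1l, Mllt1, Mllt3 and Kdm1a. The members were all probes on the array whose annotated gene symbol was one of these 10, and each probe was kept apart. This gave 23 probes of 25697, and 10 genes of the 16593 that the annotation names. No probe of these genes passed the test for a difference between the compound BRD7116 and its vehicle. Of the 23 probes, 13 were above background on at most 1 array and 10 on at least 2, as were 8613 of the 25697 probes on the array. For 9 of these 10 the 2 vehicle arrays, from different chips, differed from each other by more than the group means did. The same held for 73.0% of the 8613.

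Mouse leukemia cells, labelled as leukemia stem cells and as LSCe, were freshly isolated and kept for 6 h in suspension with 5 µM BRD7116 in 0.2% DMSO, or with 0.2% DMSO alone. BRD7116 is a small molecule for which no structure was used here. Total RNA was labelled with biotin and hybridised to Illumina MouseRef-8 v2.0 BeadChips, with 5 arrays for BRD7116 and 2 for DMSO. The labels name no strain, age or driving lesion and do not say whether replicates were separate animals or cultures, so that p-values measure only how far these arrays differ, and that spread may be technical. The published study worked with leukemia driven by the MLL-AF9 fusion, which is background knowledge and not in the labels.

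MLL, encoded by Kmt2a, methylates histone H3 at active promoters and keeps Hox genes on in blood progenitors. It works only with a core of Wdr5, Rbbp5, Ash2l and Dpy30, and menin and LEDGF tether it to chromatin. In MLL-rearranged leukemia the catalytic end of MLL is lost and replaced by a partner such as AF9 or ENL, which brings in DOT1L and the elongation machinery. LSD1, encoded by Kdm1a, removes methyl groups from histone H3 and sustains the undifferentiated state of such leukemias.

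The 7 arrays came from 3 chips, as the array names in the labels show. Chip 1, with BRD7116 replicate 1 and DMSO replicate 2, was dim, with 4585 and 4412 probes detected at a detection p under 0.05, against 6749 to 8451 on the other 5 arrays. Chip 2 carried BRD7116 replicate 2 beside DMSO replicate 1, and chip 3 carried BRD7116 replicates 3, 4 and 5. The neutrophil granule genes Elane, Prtn3, Ctsg and Mpo, which mark myeloid progenitors, were detected on all 7 arrays, as was Cebpe. Of the other myeloid markers examined, Spi1 was detected on 6 arrays and Itgam on 2. Cd34 and Cebpa were detected on none, Ptprc, the pan-leukocyte marker, on at most 1, and no probe carried the symbol Kit or Csf1r. None of 5 T cell markers was measured, and of the B cell markers only Cd79b was. Hba-a1 was the only erythroid marker measured, and it was lower on all treated arrays than on both controls, with a log2 difference of -0.92 (standard error 0.22, unadjusted p = 0.00348, adjusted p = 0.689, limma) and of -0.998 within chip 1 and -0.80 within chip 2. Pf4, the only megakaryocyte marker measured, was detected on 1 array of each group and had -0.77 (standard error 0.36, adjusted p = 0.689, limma). What part such cells have in the values below was not tested. Pecam1 and Cxcl12 were the only ones measured of stroma and endothelium. Measured here means detected on at least 2 arrays, which held for 8613 probes.

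Detection decided what could be said about this group. Of the 23 probes, 10 were measured, for 8 of the 10 genes. Over the whole array the shares were smaller, at 8613 of 25697 probes and 6473 of 16593 genes. Another 11 were detected on no array and 2 on a single array. On the dim chip only 5 (BRD7116 replicate 1) and 4 (DMSO replicate 2) of the 23 probes were detected, against 8 to 11 on each other array. Only 3 of the 10 measured probes, for Psip1, Ash2l and Dpy30, were detected on all 7 arrays. Over the whole array 35.9% of measured probes were.

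**Figure D1:**
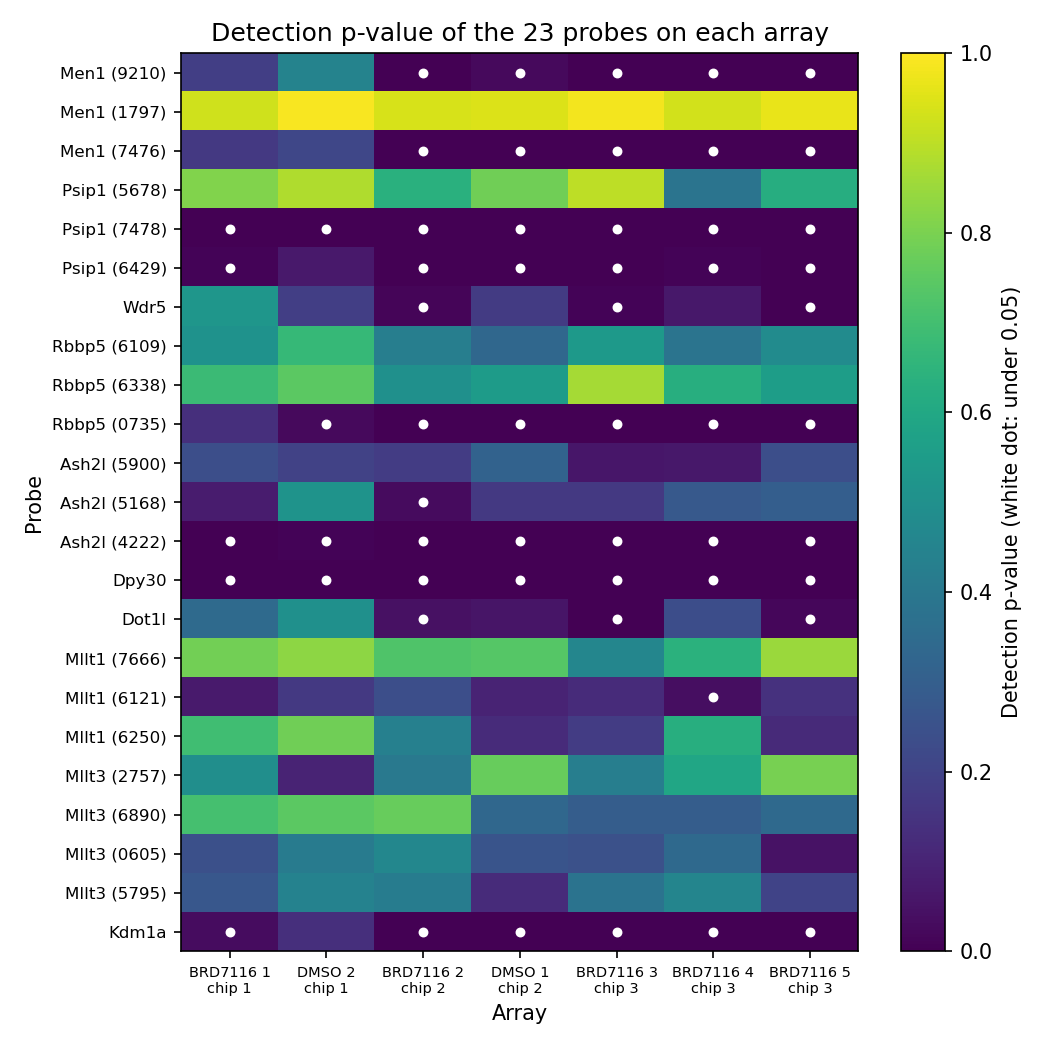
Detection p-value of each of the 23 probes (rows, with the last 4 digits of the probe identifier where a gene has several) on each of the 7 arrays (columns, ordered by chip), where a white dot marks a value under 0.05. Mllt3 has no dot and Mllt1 has 1, and the 2 leftmost columns, from the dim chip, have the fewest dots.

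Both fusion partners in the group were at background. Mllt3 encodes AF9, a reader of acylated histones that binds DOT1L, and all 4 of its probes were undetected on all 7 arrays. Their intensities lay between 140.3 and 203.7 units, and their lowest detection p-value was 0.0501, for probe ILMN_2750605 on BRD7116 replicate 5. The 4 probes are annotated to 2 transcript records of the gene. Whether any of them reads the transcript of an MLL-AF9 fusion was not tested. Mllt1 encodes ENL, the close relative of AF9, and 2 of its 3 probes were detected on no array. The third, ILMN_2756121, was detected on BRD7116 replicate 4 alone, with a detection p-value of 0.0388. Because neither gene was measured in both groups, no fold change is given for them.

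Dot1l, the histone H3 methyltransferase that AF9 and ENL recruit, was barely above background. After background correction and quantile normalization its level on the log2 scale was 5.08, 5.35, 5.60, 5.07 and 5.38 on BRD7116 replicates 1 to 5, and 5.39 and 4.94 on DMSO replicates 1 and 2. It was detected on 3 treated arrays and on neither control, where the detection p-values were 0.0576 and 0.5. The groups overlapped, the means were 5.29 ± 0.23 (SD, n = 5) and 5.16 ± 0.32 (SD, n = 2), and limma gave an adjusted p of 0.848. With no detected control only a bound on the fold was possible, and it did not exceed 1. In a bulk sample such as this, fewer cells of a type and less RNA per cell cannot be told apart.

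Menin, encoded by Men1, had 3 probes, of which ILMN_2701797 was never detected. The probe ILMN_1219210 read 5.31, 5.98, 5.97, 5.77 and 6.21 with BRD7116 and 5.59 and 4.97 with DMSO, in replicate order. Both of its lowest values were from the dim chip, where it was not detected, and the other 4 treated arrays lay above both controls. Its log2 difference, BRD7116 minus DMSO, was 0.57 (standard error 0.29, adjusted p = 0.689, limma), and it was 0.34 within chip 1 and 0.38 within chip 2. The probe ILMN_2837476 read 5.37, 6.34, 6.39, 5.97 and 6.60 with BRD7116 and 6.82 and 5.23 with DMSO. Here the highest value of all was a control, the difference was 0.10 with a standard error of 0.47 (adjusted p = 0.943, limma), and it was -0.49 within chip 2. On chip 1 it was detected on neither array. The 2 menin probes, annotated to the same transcript record, therefore differed in direction within chip 2.

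Psip1 encodes LEDGF, the chromatin-tethering protein that binds menin and MLL. Its probe ILMN_2617478 varied least over the treated arrays among the 10 measured probes, at 8.12, 8.22, 8.35, 8.06 and 8.10 with BRD7116 and 8.26 and 8.01 with DMSO. It was detected on all 7 arrays, the groups overlapped, and the difference was 0.04 with a 95% confidence interval of -0.38 to 0.45 (adjusted p = 0.949, limma). The probe ILMN_2796429 read 6.86, 5.95, 5.82, 5.63 and 5.87 with BRD7116 and 6.61 and 5.93 with DMSO. BRD7116 replicate 1 was the highest of all arrays, although every other measured probe of the group read lower on that array than the mean of the other 4 treated arrays. The difference for this probe was -0.25 with a standard error of 0.35 (adjusted p = 0.824, limma), and it was 0.92 within chip 1 and -0.66 within chip 2. The remaining probe, ILMN_2615678, was never detected.

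**Figure D2:**
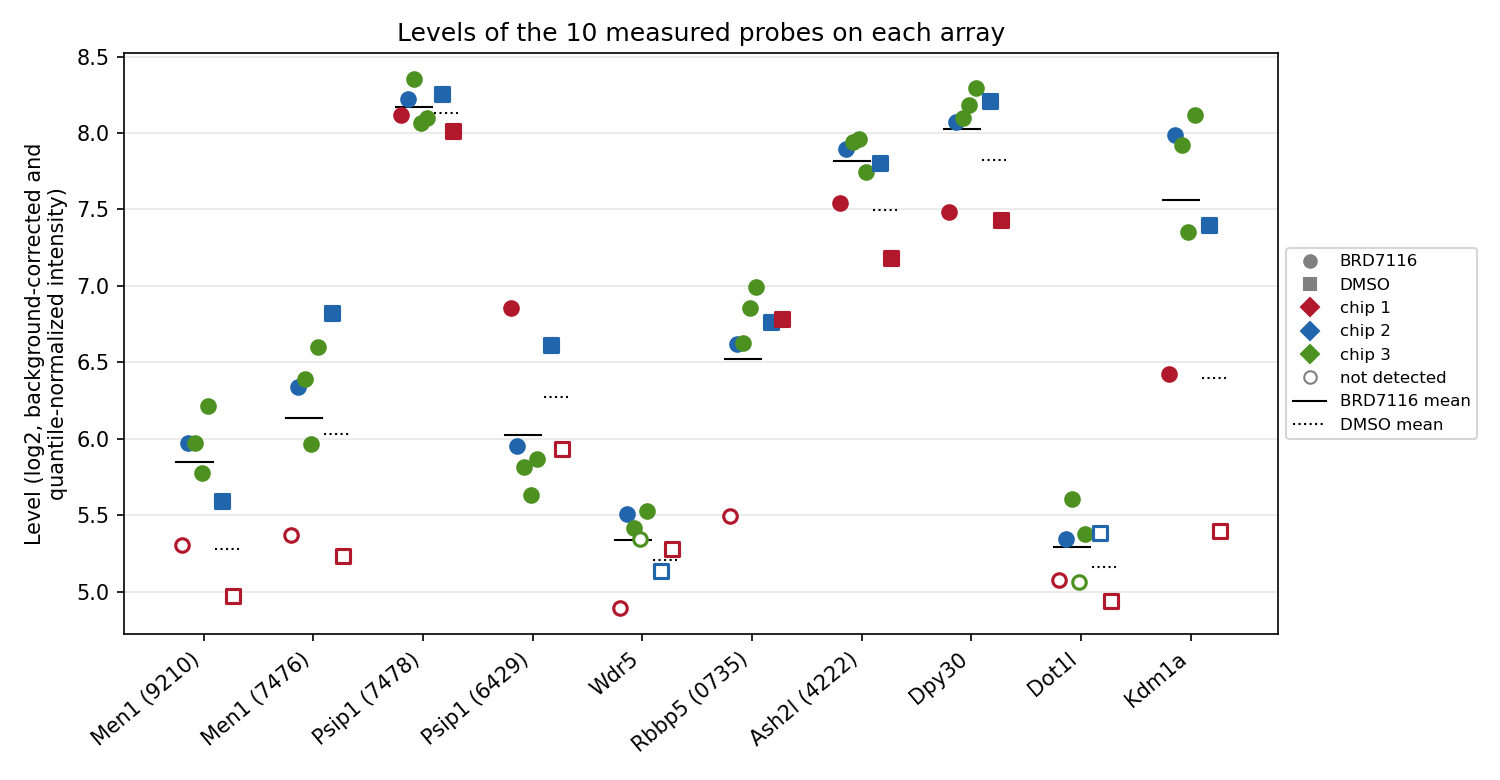
Level of each of the 10 measured probes (horizontal axis) on the log2 scale (vertical axis), with circles for the 5 BRD7116 arrays, squares for the 2 DMSO arrays, colours for the 3 chips, open symbols where the probe was not detected, and lines for the group means. Treated and control arrays overlap for every probe, and the red symbols of chip 1 are the lowest in their group for most probes.

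None of the core subunits that activate MLL passed the threshold. Dpy30, the small subunit bound through Ash2l, read 7.48, 8.07, 8.10, 8.18 and 8.30 with BRD7116 and 8.21 and 7.43 with DMSO. The 2 arrays of the dim chip were lowest, and all other arrays lay between 8.07 and 8.30. The difference was 0.20 with a standard error of 0.29 (adjusted p = 0.826, limma). Blocking on chip gave -0.04 with a 95% confidence interval of -0.47 to 0.38.

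Ash2l, which pairs with Rbbp5 to stimulate the methyltransferase, had 1 measured probe of 3, ILMN_3154222. It read 7.54, 7.89, 7.94, 7.96 and 7.75 with BRD7116 and 7.80 and 7.18 with DMSO. The dim chip was again lowest in each group, and DMSO replicate 1 lay among the treated arrays. The difference was 0.32 with a standard error of 0.23 (adjusted p = 0.711, limma), and it was 0.36 within chip 1 and 0.09 within chip 2. Of the other probes, ILMN_3075168 was detected only on BRD7116 replicate 2 and ILMN_2485900 on no array.

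Rbbp5 had 1 measured probe of 3, ILMN_2790735. It read 5.49, 6.62, 6.63, 6.86 and 6.996 with BRD7116 and 6.76 and 6.78 with DMSO. BRD7116 replicate 1 stood 1.13 below the next array and was the only array of the 7 on which the probe was not detected. The difference was -0.25 with a standard error of 0.39 (adjusted p = 0.833, limma), and it was -1.29 within chip 1 and -0.14 within chip 2. Blocking on chip, which rests on those same pairs, gave -0.72 with an unadjusted p of 0.045 and an adjusted p of 0.391 (limma). In the fit with no block, the difference was 0.0029 when BRD7116 replicate 1 was left out.

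Wdr5, the subunit that docks the core onto MLL and onto histone H3, was close to background. It read 4.89, 5.51, 5.42, 5.34 and 5.53 with BRD7116 and 5.13 and 5.28 with DMSO. It was detected on 3 treated arrays and neither control, so that again only a bound was possible, and it did not exceed 1. The means were 5.34 ± 0.26 (SD, n = 5) and 5.21 ± 0.10 (SD, n = 2), with an adjusted p of 0.845 (limma).

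Kdm1a had the largest difference among the measured probes of the group. It read 6.42, 7.99, 7.92, 7.35 and 8.12 with BRD7116 and 7.40 and 5.40 with DMSO. The 2 arrays of the dim chip were far below the others, and DMSO replicate 2 was the only array on which Kdm1a was not detected. Outside the dim chip the 4 treated arrays lay between 7.35 and 8.12, and the single control lay within that range. The treated mean of 7.56 ± 0.70 (SD, n = 5) was 2.24-fold that of the controls, 6.40 ± 1.42 (SD, n = 2), a log2 difference of 1.16 with a standard error of 0.61, a 95% confidence interval of -0.24 to 2.56 and an adjusted p of 0.689 (limma).

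Kdm1a was higher with BRD7116 within each chip that held both groups, by 1.02 within chip 1, where the control was not detected, and by 0.58 within chip 2, each a single pair of arrays. With chip as a block the difference was 0.80 with a standard error of 0.28, an unadjusted p of 0.026 and an adjusted p of 0.378 (limma). Chip 3 held no control, so that the blocked difference rests on those same pairs and adds no further comparison. The value rested on the controls. Without DMSO replicate 1 the only control was the array on which Kdm1a was not detected, which gave a bound of at least 2.54-fold. That control was from the dim chip and most treated arrays were not, so that the bound spans chips and is not one on the compound alone. The log2 difference was 0.16 without DMSO replicate 2, and 0.41 in the values the authors processed themselves, on the log2 scale.

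Across all 10 measured probes, limma called 0 at an adjusted p under 0.05, and over the array it also called 0 of 8613, or 0%. At an unadjusted p under 0.05 it called 0 of the 10, beside 6.66% of all measured probes. With chip as a block it called 0 after adjustment, again beside 0% of all, and 2 before it, Kdm1a higher and Rbbp5 lower, beside 12.5% of all. Each blocked difference rests on the single pairs of arrays within chip 1 and chip 2, as chip 3 held no control. The mean was higher with BRD7116 for 8 of the 10 probes, beside 57.4% of all probes, and the median log2 difference was 0.13, beside 0.07 over all. The 8 include Dot1l and Wdr5, which were detected on neither control, and the median fell between the values of those 2 probes. Both the count and the median therefore rest in part on background readings. The 2 groups of arrays overlapped for every probe of the group, whereas 10.8% of all probes had no overlap. Within chip 1 and chip 2 the sign was the same for 4 of the 10 probes, or 40%, beside 52.8% of all.

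**Figure D3:**
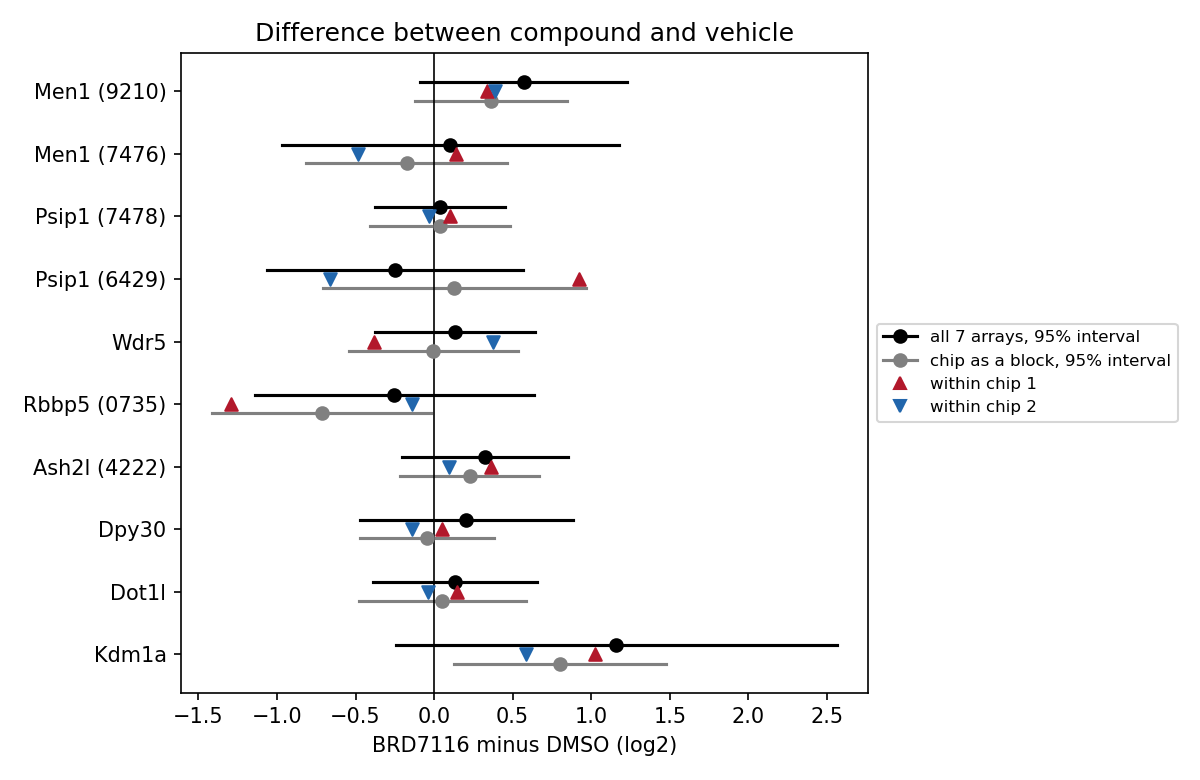
Log2 difference, BRD7116 minus DMSO (horizontal axis), for the 10 measured probes, with black points and 95% confidence intervals from all 7 arrays, grey ones with chip as a block, and triangles for the single pairs of arrays within chip 1 and chip 2. Every black interval crosses 0, and of the grey intervals only those of Kdm1a and Rbbp5 do not.

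The gap between the 2 controls was larger than the difference between groups for 9 of the 10 probes, or 90%, beside 73.0% of all measured probes. DMSO replicate 2, on the dim chip, was lower than DMSO replicate 1 for 8 of the 10 probes, beside 58.5% of all measured probes. The median gap was -0.62 on the log2 scale, whereas the median over all measured probes was -0.13. BRD7116 replicate 1 was lower than the mean of the other 4 treated arrays for 9 of the 10, beside 5140 of all 8613. The median was -0.62, beside -0.14 over all. For Kdm1a the gaps were -2.002 in the controls and -1.42 in the treated arrays, and for Men1 probe ILMN_2837476 they were -1.59 and -0.95. The median log2 difference between BRD7116 and DMSO was 0.29 when BRD7116 replicate 1 was left out, 0.48 when DMSO replicate 1 was, and -0.09 when DMSO replicate 2 was. Without both arrays of the dim chip, 5 of the 10 probes had a higher treated mean and the median was -0.01, beside 0.01 over all. In that fit limma called 0 of them after adjustment, beside 0% of 8160 probes, and 1 before it, Psip1 probe ILMN_2796429 with a log2 difference of -0.90 (adjusted p = 0.349), beside 9.15% of all.

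**Figure D4:**
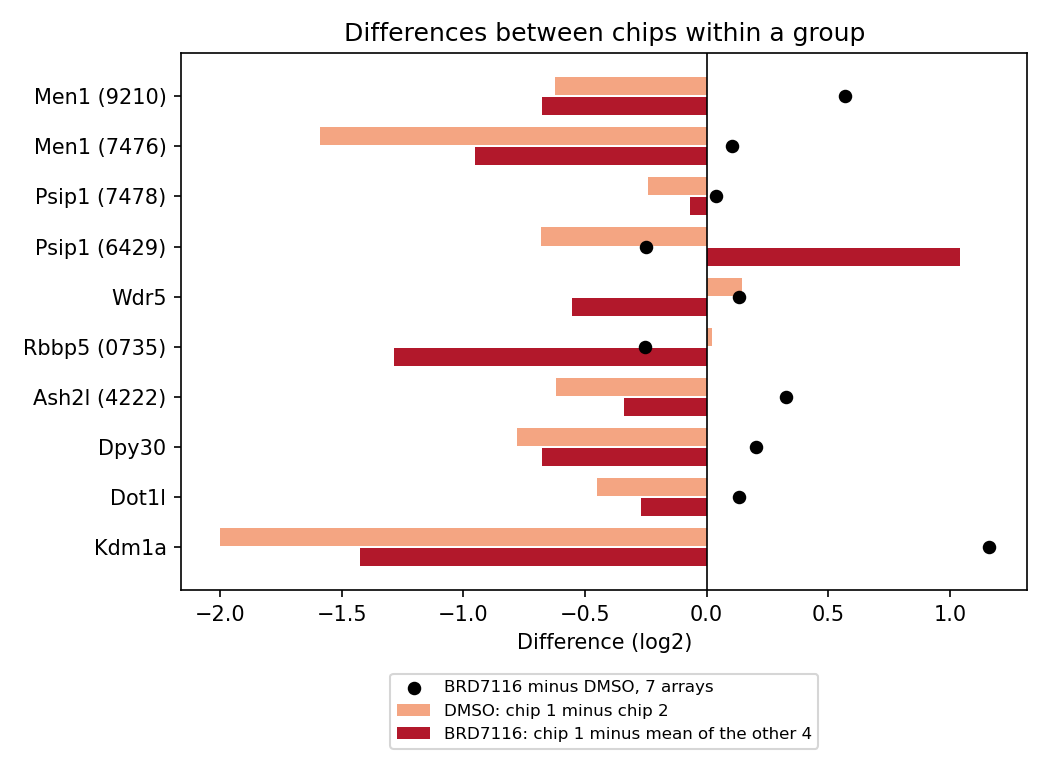
Log2 difference between chips for the 10 measured probes, with light bars for DMSO replicate 2 (chip 1) minus DMSO replicate 1 (chip 2), dark bars for BRD7116 replicate 1 (chip 1) minus the mean of the other 4 treated arrays, and black points for BRD7116 minus DMSO over the 7 arrays. The bars of Kdm1a reach -2.002 and -1.42, beyond its point at 1.16.

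Precision was limited by the 7 arrays. The 95% confidence interval of a log2 difference had a median half-width of 0.67 over the 10 probes, beside 0.63 over all, and ran from 0.41 for Psip1 probe ILMN_2617478 to 1.40 for Kdm1a. A p that misses the threshold therefore does not show that a level stayed the same.

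Genes that act with these proteins were examined in 6 lists of 69 genes in all, of which 53 had a named probe and 36 were measured, each by its probe with the highest mean. None of the 36 passed the adjusted threshold, the treated mean being higher for 22, or 61.1%, beside 57.4% of all measured probes, and lower for 14. The 22 include Rcor1, which was detected on neither control. Among the MLL and SET1 methyltransferases 2 of 7 genes were measured, and no probe carried the symbol Kmt2a. Kmt2b had a log2 difference of -0.01 (standard error 0.23) and Setd1a of 0.21 (standard error 0.30). Among the other subunits of these complexes 6 of 12 were measured, 5 with a higher mean, and the median was 0.17. Of these, Cxxc1, the SET1 subunit that reads unmethylated CpG sites, had 0.24 (standard error 0.17) with all treated arrays above both controls, and the demethylase gene Kdm6a had -0.07 (standard error 0.19). Both genes had 2 measured probes, and the mean over the probes of a gene gave a log2 difference of 0.12 for each.

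In the super elongation and DOT1L list 6 of 15 genes were measured, 4 with a higher mean, with a median of 0.30. The elongation factor gene Ell had a log2 difference of -0.18 (standard error 0.21) and Bcor, which binds AF9, had 0.47 (standard error 0.25). Bcor was not detected on DMSO replicate 2, and its log2 difference was 0.16 without that array. Of the PAF1 complex, which MLL fusions need for transcription, 3 of 6 were measured with a median of 0.03. Wdr61 had 0.30 (standard error 0.54) and Leo1 had -0.07 (standard error 0.31), and both were detected on 1 of the 2 controls.

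The LSD1-CoREST list had 8 of 12 genes measured, 6 with a higher mean, and a median of 0.39. The 6 and the median include Rcor1, which was detected on neither control, so that both rest in part on background readings. The 2 genes of the 36 with an unadjusted p under 0.05, or 5.56%, beside 6.66% of all measured probes, were Hdac1 and Hdac2, the deacetylases of that complex. Hdac1 read 7.94, 7.70, 7.79, 7.80 and 7.69 with BRD7116 and 8.18 and 8.39 with DMSO. All treated arrays lay below both controls, and the difference was -0.50 with a standard error of 0.17 (unadjusted p = 0.0207, adjusted p = 0.689, limma), -0.45 within chip 1 and -0.47 within chip 2. Hdac2 read 6.80, 7.73, 7.66, 7.36 and 7.54 with BRD7116 and 7.29 and 5.03 with DMSO, with the undetected DMSO replicate 2 far below the rest. Its difference was 1.26 with a standard error of 0.54 (unadjusted p = 0.0493, adjusted p = 0.689, limma), and it was 0.13 without DMSO replicate 2. Like Kdm1a, Hdac2 had its lowest value on DMSO replicate 2. The groups did not overlap for 3 genes of the list, Hdac1, Zmym3 and Rcor1. The zinc finger gene Zmym3 lay below both controls on all treated arrays, with a log2 difference of -0.38 (standard error 0.19, adjusted p = 0.689, limma). Rcor1, which encodes CoREST, was detected on 3 treated arrays and on neither control, so that no fold is given. Its readings were 5.46 ± 0.44 (SD, n = 5) with BRD7116 and 4.78 ± 0.07 (SD, n = 2) with DMSO. It passed the filter only through treated arrays, so that its lack of overlap is one from background readings and is not taken as a difference. Over the 6 lists the groups did not overlap for 5 of 36 genes, or 13.9%, Rcor1 included, beside 10.8% of all measured probes. Besides the 3 of this list, they were Cxxc1 and the MLL-AF9 target Mef2c. Mef2c had a log2 difference of 0.51 (standard error 0.23, adjusted p = 0.689, limma).

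Of 17 genes known as targets of MLL-AF9, 11 were measured, 4 with a higher and 7 with a lower mean, and the median log2 difference was -0.07. Hoxa5 had -0.12 (standard error 0.18) and Meis1, the Hox cofactor, had 0.23 (standard error 0.19), neither past the adjusted threshold. Within chip 1 and chip 2 Meis1 had 0.64 and -0.08, and Hoxa5 had 0.12 and -0.22. Hoxa9 had -0.51 (standard error 0.25, adjusted p = 0.689, limma) with overlapping groups, and it was -0.89 within chip 1 and 0.13 within chip 2.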

How the data were processed

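The authors deposited non-normalized intensities, each with its detection p-value, per the file headers. A table of log2 values that the authors processed was also deposited. How it was made is not given in the sources used here, its median was 7.52 in each column and its ranks followed the intensities. It served as an alternative. The scanner software is not given in the sources used here.

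Intensities were corrected for background by neqc, which derives the negative controls from the detection p-values (offset 16), and then brought to common quantiles and to log2, in limma 3.58.1 under R 4.3.3. The filter asked for detection at a p under 0.05 by 2 or more arrays and left 8613 of 25697 probes. The groups were compared through lmFit and eBayes (two-sided, no covariates, Benjamini-Hochberg over all 8613, threshold 0.05), which was tested on simulated data. Those data had independent noise and no difference between chips, so that the fit was not tested under one. Symbols came from the platform annotation, which gave 1 symbol for 23978 probes and none for 1719, and matching by gene identifier to RefSeq GRCm38.p6 changed 0 of them. No coordinates are printed since no genome build is named in the files. A probe detected in only 1 group gave a bound, set by the lowest level among detected probes. The members and lists were chosen with earlier results of these data known. The text names all members and, of each list, the 2 measured genes with the highest mean, as none passed. Hdac2, Rcor1, Mef2c, Hoxa9 and the markers Hba-a1 and Pf4 were named outside this rule, after their values were seen. Equal replicate numbers did not share a chip, and no pairing was assumed. Alternatives varied the background correction, normalization, filter, probe choice, prior, array weights and blocks, used the authors' values, and left out arrays or the dim chip. One of them, without the dim chip under the normalization over 7 arrays, was added after the data were seen, as was the count of higher means.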

Additional observations from a re-analysis of the deposited data

Results flagged for a closer look

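For 5 of 36 probes examined, a single BRD7116 array lay far from its 4 fellow arrays: the probes comprised the 23 of the group and 13 of partner genes. Chance flags about 1 in 20 such groups. In 4 of the 5 cases the array was BRD7116 replicate 1, from the dim chip, and what part the chip has in them was not tested. On the log2 scale it was highest for Psip1 probe ILMN_2796429, at 6.86 against 5.63 to 5.95. It was lowest for Wdr5, at 4.89 against 5.34 to 5.53, for Rbbp5 probe ILMN_2790735, at 5.49 against 6.62 to 6.996, and for Dpy30, at 7.48 against 8.07 to 8.30. The Rbbp5 probe ILMN_2766338, detected on no array, was lowest on BRD7116 replicate 3, at 4.60 against 4.78 to 4.85.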

How the results depend on the processing

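No probe of the group passed the adjusted threshold under any of 22 alternative fits. Over all probes the count past it was 0 in the comparison as set, 1 with normexp, with the authors' values, with no detection filter, with detection on all 7 arrays and without the dim chip under the normalization over 7 arrays, 2 without background correction and with a trended prior, and 0 to 706 when 1 array was left out, the 706 without DMSO replicate 1. A lone control was then assumed to vary like the treated arrays. Among the named partner genes, Hdac2, Bcor, Wdr61 and Leo1 were not detected on that lone control. Hdac2 therefore gave only a bound of at least 2.30-fold. That bound too spans chips, as the lone control was from the dim chip. The median over the group was 0.29 with array weights, -0.035 within chip 2 and -0.090 to 0.48 when 1 array was left out.

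Differences kept their direction in the alternative fits for Men1 probe ILMN_1219210, Ash2l, Kdm1a, Setd1a, Cxxc1, Bcor, Zmym3, Hdac1, Meis1 and Hdac2. Fits that changed only the prior or the filter could not alter the difference of a probe. The replicate block could not give another difference than the chip block. Direction kept in those fits therefore carries no weight. Others turned, among them Dot1l and Wdr5, which were detected on neither control, so that their fitted values compare background readings and carry no direction. Under median scaling, relative to a shift of all probes of 0.53, Men1 probe ILMN_2837476 had -0.15, Dot1l -0.32, Wdr5 -0.25, Rbbp5 0.091, Kmt2b 0.30, Kdm6a 0.26, Ell 0.14 and Hoxa5 0.18. With chip as a block, and equally with the replicate block, Men1 probe ILMN_2837476 had -0.18, Psip1 probe ILMN_2796429 0.13, Wdr5 -0.0053, Dpy30 -0.044, Kmt2b 0.034 and Ell 0.00054. Equal numbers do not pair the arrays, and the replicate block changed no call. Without the dim chip, renormalized and then under the normalization over 7 arrays, Men1 probe ILMN_2837476 had -0.55 and -0.50, Dot1l -0.041 and -0.037, Psip1 probe ILMN_2617478 -0.0707 and -0.0704, Rbbp5 0.0139 and 0.0136, Dpy30 -0.0501 and -0.04995, and Leo1 0.20 and 0.17. Array weights gave Rbbp5 0.00095 and Leo1 0.12, the mean of detected probes gave Psip1 -0.11 and Kdm6a 0.12, and Kmt2b had 0.0015 without background correction and 0.0021 with the authors' values.

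When 1 array was left out, the ranges that crossed 0 were -0.73 to 0.91 for Men1 probe ILMN_2837476, -0.097 to 0.36 for Dot1l, -0.084 to 0.16 and -0.63 to 0.087 for Psip1 probes ILMN_2617478 and ILMN_2796429, -0.35 to 0.0029 for Rbbp5, -0.19 to 0.595 for Dpy30, -0.088 to 0.074 for Kmt2b, -0.37 to 0.0049 for Ell, -0.33 to 0.91 for Wdr61, -0.17 to 0.10 for Leo1 and -0.28 to 0.031 for Hoxa5. The cause of these turns was not tested. Signal over background limits what can be said of Mllt1, Mllt3, Dot1l and Wdr5.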
